A study of Mus musculus with 23 samples.

Results

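The clustered protocadherin genes were described here from 380 CpG regions of 150 bp on chromosome 18 of the mouse genome (GRCm38), out of 210191 CpG regions measured across the genome. They were defined by position, as every region of the deposited matrix whose start lay between 36.92 and 37.85 Mb. The locus itself was chosen with earlier results of these data known. The alpha cluster (36.92 to 37.20 Mb) held 137 of them, the beta cluster (37.25 to 37.53 Mb) 127 and the gamma cluster (37.65 to 37.85 Mb) 86, and the remaining 30 lay between the clusters.

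Protocadherins are cadherin-like cell adhesion proteins that neurons carry on their surface and use to tell their own branches from those of other neurons. In the alpha and gamma clusters, a row of variable first exons, each with its own promoter and each coding for a whole extracellular part, is spliced to a few constant exons that are common to the cluster. The beta genes have a single large exon each and no constant exon. A neuron expresses a few variable isoforms, chosen largely at random, through looping between promoters and a distant enhancer by CTCF and cohesin, and promoters that are not chosen carry DNA methylation. The C-type isoforms at the end of the alpha and gamma clusters (Pcdhac1, Pcdhac2, Pcdhgc3, Pcdhgc4 and Pcdhgc5) are expressed more uniformly.

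The assay was MBD-seq, in which the protein MBD2 captures sheared DNA with methylated CpGs for sequencing, and the tissue was the prefrontal cortex of 23 mice of both sexes. C57BL/6J (B6) mice formed a CORT + DFP group of 6 and a control group of 5, and DBA/2J (D2) mice formed 2 groups of 6. The CORT + DFP mice drank corticosterone, a stress hormone, at 20 mg% for 7 days, received diisopropyl fluorophosphate, an organophosphate used in place of sarin, at 4.0 mg per kg, and had corticosterone again in alternate weeks over 12 weeks; the controls followed that schedule with saline and plain water. The libraries were labelled in 3 sets: in set 1, 3 treated B6 mice were 218 to 226 days old and 5 D2 mice of both groups were 196 days old, whereas the 8 B6 mice of set 2 were 145 and the 7 D2 mice of set 3 were 147 days old. Strain and set can thus be told apart only within set 1. There the B6 mice were all treated and all older than the D2 mice, so strain and age cannot be told apart in that set. The tissue was whole prefrontal cortex with all its cell types, so a different share of a cell type and a different methylation per cell cannot be told apart. The B6 strain is also the source of the reference genome, and reads of D2 mice were aligned to it.

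Values are log2 RPKM, the logarithm of reads per kilobase of region scaled to library size, and they measure how much methylated DNA of a region was captured; they are not percentages of methylation. The authors sheared DNA to about 150 bp and extended reads to 150 bp, so a fragment can count in adjoining regions. Neighbouring values therefore share reads, and the regions of a run are not separate tests. The libraries held 9776537 to 18428398 reads in the measured regions. The protocadherin regions had a median of 45 reads per mouse, with region medians of 16 to 131, and took 0.109% to 0.151% of the reads of a mouse. The spread that counting alone gives had a median of 0.21 (log2) over these regions, against a residual SD of 0.24 in the regression.

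The regions fell mostly inside the variable exons. Of the 380, 282 (74.2%) overlapped the first exon of a protocadherin isoform in the GENCODE M21 annotation, 38 lay in other genes and 60 in introns or between genes, and 0 overlapped the 1 kb before a first exon. A total of 33 of the 38 lay in Gm36858, a pseudogene in the alpha cluster. Regions were present in 49 of 53 variable isoforms; Pcdhb1, Pcdhga1, Pcdhga9 and Pcdhga11 had none. The C-type first exons contain 85 windows of 150 bp, all 85 with CpGs and with a mean of 5.89 CpGs each, and 0 of them had passed the authors' filter on read number. By the same count, 99 of 187 windows with CpGs in the alpha first exons (52.9%) had passed, 43 of 112 in gamma-B (38.4%), 99 of 478 in beta (20.7%) and 40 of 195 in gamma-A (20.5%). The first exons holding the most regions of their subfamily were those of Pcdha6 in alpha with 12, Pcdhga12 in gamma-A with 11, Pcdhb22 in beta with 8 and Pcdhgb5 in gamma-B with 8.

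The regions were not spread evenly along the exons. In the beta genes, 64 of the 99 began 1500 to 2000 bp after the start of the exon, and 0 of the 74 windows in the 500 bp after the start had passed the filter although 68 of those held CpGs. The gamma-A and gamma-B exons likewise had 0 regions in that stretch. The alpha exons differed in having 12 regions there, in 7 isoforms (Pcdha1, Pcdha2, Pcdha3, Pcdha5, Pcdha6, Pcdha8 and Pcdha10), and a further 69 regions from 1000 to 2000 bp.

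The median level over the mice was 4.63 in alpha, 4.54 in beta and 4.30 in gamma on the log2 RPKM scale, against 4.39 over 195677 autosomal regions. The autosomal level varied with the number of CpGs in a region, with a median of 4.20 at 1 CpG and 4.77 at 12 CpGs and lower medians at still higher numbers, so each region was also set against the autosomal median for its own number of CpGs. On that scale, alpha regions had a median of 0.10 above, with 86 of 137 above, and gamma regions a median of 0.06 below (-0.06), with 57 of 86 below. The beta regions stood at 0.03, with 75 of 127 above. The lowest regions of each cluster by mean level were one in an intron or intergenic stretch of alpha (chr18:36979801-36979950, 3.63), one in Pcdhb22 (chr18:37521901-37522050, 3.51) and one in Pcdhgb1 (chr18:37682401-37682550, 3.61). The highest were one in Gm36858 (chr18:36987301-36987450, 5.42), one between Pcdhb8 and Pcdhb9 (chr18:37365301-37365450, 6.10) and one in Pcdhgb2 (chr18:37691551-37691700, 5.69).

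To ask whether the methylation of these genes differed between B6 and D2 mice, each of the 210191 regions was fitted by a regression on treatment and strain with an interaction term and with sex and age as covariates, and the strain difference was averaged over the treatments. A region was called at an adjusted p below 0.05 (Benjamini-Hochberg over all regions). In the protocadherin clusters, 149 of 380 regions (39.2%) were called, where 33.6% of all regions were. The calls leaned toward lower values in D2: 104 regions (27.4%) were lower, against 17.9% of all regions, and 45 (11.8%) were higher, against 15.7%. The 152 regions in 1 Mb on each side of the clusters had 15 lower and 9 higher calls (15.8% called, itself below the 33.6% of all regions). The median strain difference was -0.13 (log2) over the 380 regions and 0.01 over all regions.

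By cluster, 36 alpha regions were lower in D2 and 8 were higher, 40 beta regions were lower and 18 higher, and 23 gamma regions were lower and 15 higher. The share called was 32.1% in alpha, below the 33.6% of all regions, and 45.7% in beta and 44.2% in gamma. In the first exons, 97 of 282 regions were lower and 17 higher, where 17.9% and 15.7% of all regions were. All 34 called first-exon regions of alpha and 40 of 42 of beta were lower in D2, whereas gamma-A had 8 lower and 7 higher and gamma-B 15 lower and 8 higher. Over all exon regions, called or not, the median difference was -0.20 in the 99 of alpha and -0.22 in the 99 of beta. A total of 13 regions were lower in D2 by at least 1.0 (3.42%, against 8.8% of all regions), of which 9 were in Pcdhgb1 and Pcdhgb5, 3 in Pcdha2 and Pcdha5 and 1 in Pcdhb22. The levels of the strains did not overlap in 24 regions: every D2 mouse was below every B6 mouse in 14 (3.68%, against 10.1% of all regions) and above in 10 (2.63%, against 2.87%).

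The counts were lower in fits that took the sets into account. With set in place of age as the covariate, 63 regions were called, 44 lower and 19 higher in D2, of which 55 were among the 149. That was 16.6% of the protocadherin regions, where the same fit called 20.1% of all regions. Their share was thus above the background in the main fit with age and below it with set. The excess also varied with the scaling while age was kept. It was 36.8% against 37.2% of all regions after quantile normalization and 36.1% against 35.6% with each mouse centred on its median. With voom weights it was 45.0% against 36.6%. In the 8 mice of set 1 alone, a fit added after the data had been seen, 14 were called (3.68%, against 7.61% of all regions), 7 in each direction, and 148 of the 149 differences had the sign they had in all mice, of which those 8 are a part. Set 2 held B6 mice alone and set 3 D2 mice alone, and the part of the sets in the lower counts was not tested.

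The largest strain differences were in the gamma-B subfamily. In the Pcdhgb5 exon, the region chr18:37732951-37733100 had levels of 4.73, 4.97 and 5.28 (lowest, median and highest) in the B6 mice and 2.29, 2.74 and 3.11 in the D2 mice. All D2 mice were below all B6 mice, with an average of 59.0 reads in B6 and 12.2 in D2. The difference was -2.27 ± 0.088 (SE, adjusted p = 3.25e-13), and the region before it, chr18:37732801-37732950, differed by -2.27 ± 0.060 (adjusted p = 1.15e-15). All 5 regions from chr18:37732501 to 37733250 were lower in D2, by values between -0.87 and -2.27.

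Pcdhgb1 showed the same direction over 5 regions in a row, chr18:37681801-37682550, with differences from -1.01 to -2.08. In its region chr18:37682101-37682250 the B6 mice had levels of 4.83, 5.18 and 5.33 and the D2 mice 2.72, 3.04 and 3.35 (lowest, median and highest). The strains again did not overlap, and the difference was -2.08 ± 0.075 (SE, adjusted p = 1.09e-13). In set 1 alone the means in this region were 5.02 in B6 and 2.94 in D2.

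Parts of other gamma-B exons were higher in D2. In Pcdhgb2, 4 regions in a row (chr18:37691401-37692000) were higher by 0.67 to 1.00, and in Pcdhgb6 3 regions (chr18:37743901-37744350) by 0.63 to 0.89, while another of the 7 Pcdhgb6 regions had a difference of -0.33 and was called lower. The highest gamma region, chr18:37691551-37691700 in Pcdhgb2, had 4.90, 5.18 and 5.44 in B6 mice and 5.88, 6.12 and 6.39 in D2 mice. Every D2 mouse was above every B6 mouse there, with a difference of 1.00 ± 0.072 (SE, adjusted p = 2.11e-09). Pcdhgb4 and Pcdhgb7 had 0 lower calls and 0 and 1 higher calls, and Pcdhgb8 had 2 lower calls (-0.32 and -0.37).

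**Figure D1:**
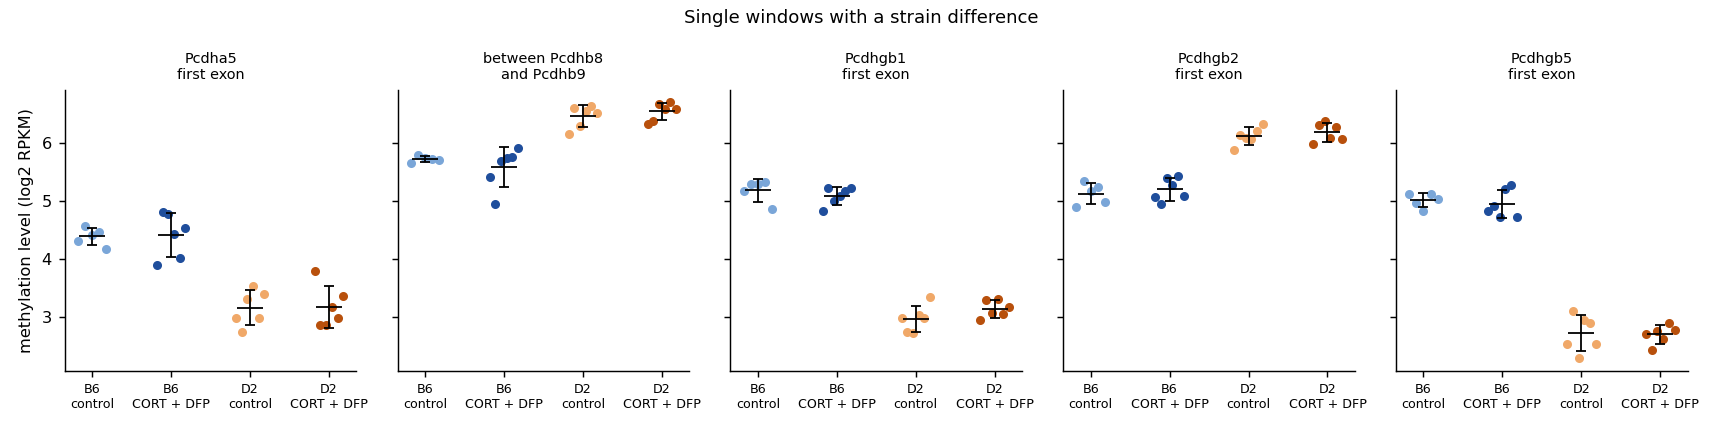
Methylation level (log2 RPKM, vertical axis) of 5 regions in each mouse, by strain and treatment; points are mice and bars the mean ± SD of a group. D2 mice lie below B6 mice in the regions of Pcdha5, Pcdhgb1 and Pcdhgb5 and above them in the regions between Pcdhb8 and Pcdhb9 and in Pcdhgb2, and the strains do not overlap in any of the 5.

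Some gamma-B exons are close copies of each other. Reads from near-identical exons can be placed in the wrong copy, and the values of these isoforms are uncertain for that reason. The 5 Pcdhgb1 regions were 98.7% identical (median, and 100% at most) to the Pcdhgb2 exon by alignment of the reference transcripts, and the Pcdhgb5 regions with an alignment were 96.0% identical (median, and 98.7% at most) to Pcdhgb6. Pcdhgb1 and Pcdhgb5 were lower in D2 while these partners were higher. The Pcdhgb1 regions were also at most 98.7% identical to Pcdhgb8 (median 90.6%) and at most 96.7% to Pcdhgb4 (median 94.0%). Those 2 isoforms had 0 higher calls in D2. As summed RPKM of the first-exon regions, Pcdhgb1 had 142 ± 17.1 in B6 and 50.6 ± 6.67 in D2 (SD, n = 11 and 12), and Pcdhgb2 had 196 ± 15.0 and 300.0 ± 22.3. Their joint sum was 338 ± 19.4 in B6 and 351 ± 24.9 in D2, a ratio of D2 to B6 of 1.04, although Pcdhgb1 alone had a ratio of 0.356. Pcdhgb5 had 211 ± 20.1 in B6 and 93.6 ± 13.5 in D2, Pcdhgb6 stood at 178 ± 16.3 and 233 ± 23.3, and their joint sum had a ratio of 0.839. Summed over all 44 gamma-B regions the ratio was 0.931. How much the placing of reads between copies adds to the single-isoform differences was not tested.

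**Figure D2:**
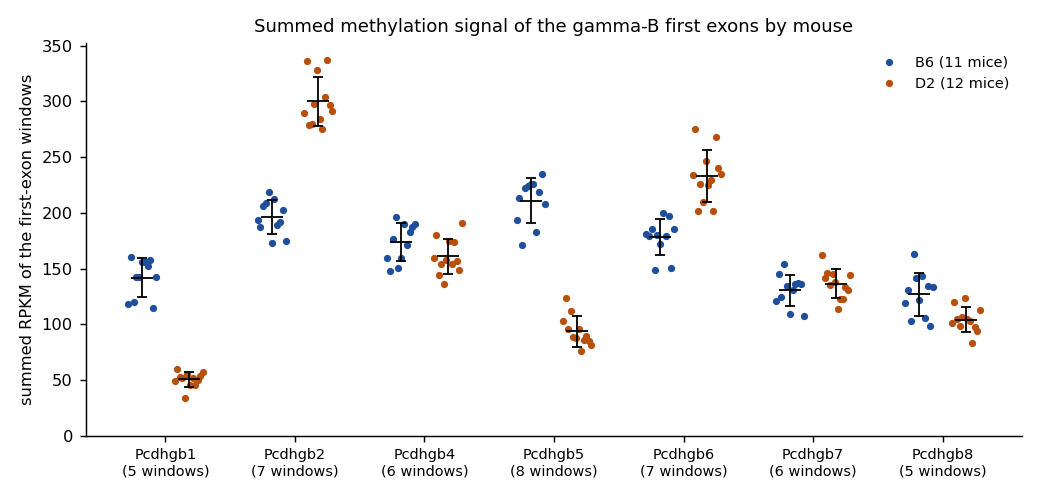
Summed RPKM of the first-exon regions (vertical axis, from 0) of the 7 gamma-B isoforms in each mouse, with the mean ± SD for 11 B6 and 12 D2 mice. D2 mice lie below B6 mice for Pcdhgb1 and Pcdhgb5 and above them for Pcdhgb2 and Pcdhgb6, and the strains overlap for Pcdhgb4, Pcdhgb7 and Pcdhgb8.

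Over all first exons, 76 of the 253 regions with an aligned copy were at least 95% identical to another isoform. This held for 33 of the 86 that were lower in D2, 9 of the 17 that were higher and 34 of the 150 that were not called.

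The gamma-A exons varied in direction from isoform to isoform. Pcdhga8 had 3 regions in a row that were higher in D2 by 0.52 to 0.65 (chr18:37726351-37726800), and the last 3 regions of Pcdhga12 were higher by 0.39 to 0.46. In Pcdhga4, 4 of 5 regions were lower, by -0.30 to -0.50. The single region of Pcdhga10 was lower by -0.72 ± 0.11 (SE, adjusted p = 2.5e-05).

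In the alpha cluster, the largest differences lay near the start of the exons. In Pcdha5, the region 161 bp after the start (chr18:36960601-36960750) had levels of 3.91, 4.44 and 4.82 in B6 mice and 2.75, 3.07 and 3.79 in D2 mice (lowest, median and highest), without overlap. Its difference was -1.24 ± 0.14 (SE, adjusted p = 7.45e-07). A region of Pcdha2 (chr18:36939601-36939750) differed by -1.14 ± 0.13 and one of Pcdha1 (chr18:36930301-36930450) by -0.80 ± 0.062, again with no overlap between the strains.

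The 12 alpha regions within 500 bp of the exon start had a median difference of -0.73, ranging from -1.24 to -0.24, and 9 were called, all lower in D2. The other 87 alpha exon regions had a median of -0.16 and 25 lower calls, where 17.9% of all regions were called lower. The 500 bp boundary was chosen after the values had been seen, so the contrast between these stretches was not tested. Median levels in the first 500 bp were 4.42 in B6 and 3.77 in D2. In the fit of set 1 alone, the Pcdha8 regions of this stretch were not lower in D2, with differences of 0.07, 0.25 and 0.22. The Pcdha6 regions there differed by -0.22 and -0.05. Those of Pcdha1, Pcdha2, Pcdha3, Pcdha5 and Pcdha10 ranged from -1.37 to -0.71. Pcdha12, which had no region there, had 7 of 7 regions called lower, by -0.33 to -0.48.

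**Figure D3:**
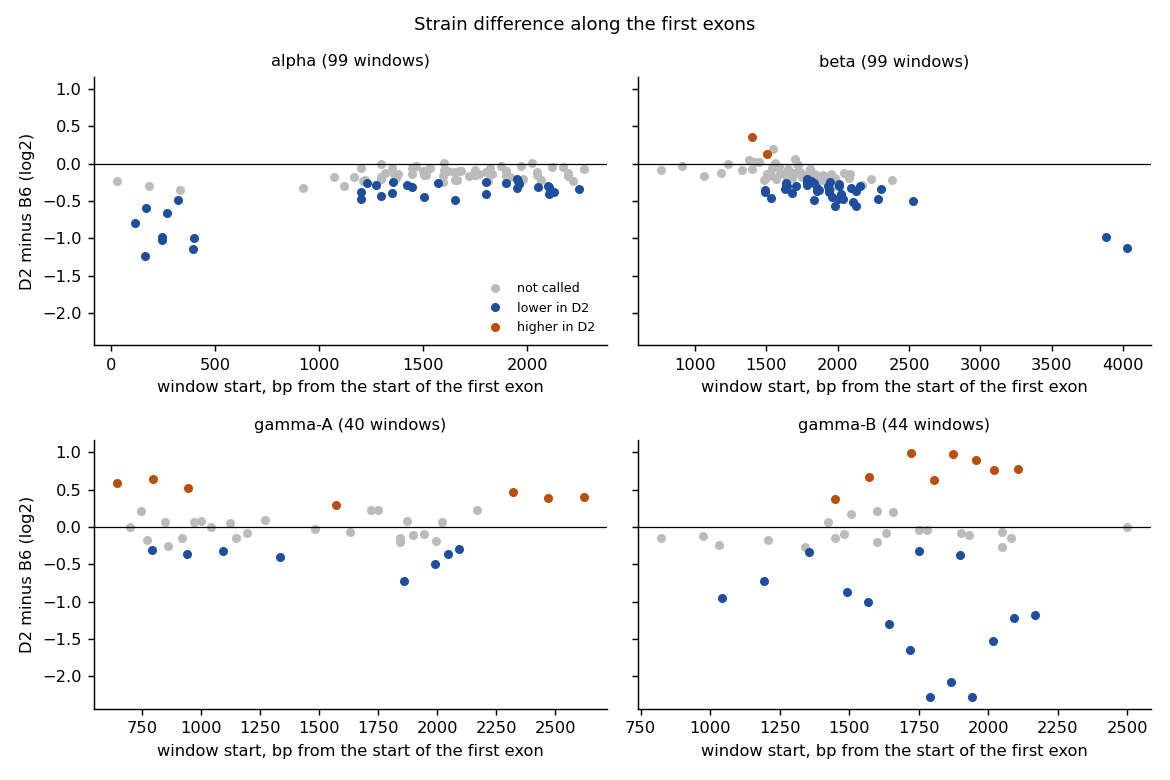
Strain difference (D2 minus B6, log2, vertical axis) of each first-exon region against the distance of its start from the start of the exon in bp (horizontal axis), for the alpha, beta, gamma-A and gamma-B isoforms; blue marks regions called lower in D2, orange higher, and grey not called. The alpha regions within 500 bp lie between -1.24 and -0.24, and the gamma-B regions spread from -2.27 to 1.00.

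In the pseudogene Gm36858 of the same cluster, 8 of 33 regions were called higher in D2 and 0 lower. Of all regions, 15.7% were called higher. The median difference over the 33 was 0.03, so most of them differed little. Its highest region, chr18:36987301-36987450, had 4.83, 5.24 and 5.67 in B6 mice and 5.24, 5.61 and 5.88 in D2 mice. The ranges overlapped, and the difference was 0.37 ± 0.080 (SE, adjusted p = 0.00103).

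In the beta cluster, the 3 regions with the smallest strain p lay outside the exons. Between Pcdhb8 and Pcdhb9, 6 regions in a row (chr18:37365001-37365900) were higher in D2 by 0.42 to 0.87, and 6 more (chr18:37369201-37370100) by 0.29 to 0.88. The first stretch holds the highest region of the 3 clusters, chr18:37365301-37365450, with 4.96, 5.73 and 5.93 in B6 mice and 6.17, 6.58 and 6.71 in D2 mice. All D2 mice were above all B6 mice, and the difference was 0.87 ± 0.066 (SE, adjusted p = 3.89e-09). In the regions beside it, chr18:37365151-37365300 and chr18:37365451-37365600, D2 was higher by 0.85 ± 0.048 and 0.79 ± 0.072. In set 1 alone the means of these 3 regions were 5.36, 5.17 and 5.36 in B6 and 6.36, 6.11 and 6.09 in D2.

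Of the 99 beta exon regions, 40 were called lower in D2 and 2 higher, where 17.9% and 15.7% of all regions were. Every region of Pcdhb21 was called lower (6 of 6, -0.40 to -0.57), as was every region of Pcdhb17 (5 of 5, -0.27 to -0.34), Pcdhb16 (4 of 4) and Pcdhb14 (3 of 3). Pcdhb10 had 3 of 4 lower and Pcdhb3 had 1 higher call, and Pcdhb7 had 1 higher (0.35) and 1 lower (-0.47). A pair of regions far along the Pcdhb22 exon had differences of -0.98 and -1.14. In the second of them (chr18:37521901-37522050), the B6 mice had 3.46, 4.24 and 4.59 and the D2 mice 2.49, 2.83 and 3.53, so the highest D2 mouse was above the lowest B6 mouse.

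The 3 regions of each cluster with the smallest strain p within it, 9 in all, are named above. They lie in Pcdha1, Pcdha2, Pcdha5, Pcdhgb1 and Pcdhgb5 and between Pcdhb8 and Pcdhb9. All 9 stayed called when any 1 mouse was left out, with limma, and with set in place of age, and 4 of the 9 were called in the 8 mice of set 1 alone. The 9 were picked by their p in these same mice, so such fits are no separate test.

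Averaged over its regions, each cluster was lower in D2. The alpha mean was 4.67 ± 0.066 in B6 and 4.50 ± 0.096 in D2 (SD, n = 11 and 12 mice), the beta mean 4.55 ± 0.074 and 4.46 ± 0.086, and the gamma mean 4.50 ± 0.051 and 4.34 ± 0.092. The ranges of the strains overlapped in all 3. The mean over all autosomal regions also was lower in D2, at 4.48 in B6 and 4.31 in D2, while the 152 flanking regions had 4.37 ± 0.042 and 4.34 ± 0.048. Between the sets of a strain, the means did not move in the same direction in each cluster. The alpha mean of D2 mice was 4.41 ± 0.093 in set 1 and 4.55 ± 0.041 in set 3, and that of B6 mice was 4.60 ± 0.014 in set 1 and 4.69 ± 0.056 in set 2. The gamma mean of D2 mice was 4.39 ± 0.10 in set 1 and 4.30 ± 0.070 in set 3, and that of B6 mice was 4.49 ± 0.094 in set 1 and 4.50 ± 0.035 in set 2. Within set 1 alone the alpha mean was lower in D2 than in B6, as in all mice. Males were slightly above females in each strain and cluster, for example 4.69 ± 0.075 against 4.64 ± 0.044 for alpha in B6, a gap within the spread between mice. This was not particular to the clusters. Over all autosomal regions, males stood at 4.50 and females at 4.46 in B6, and at 4.33 and 4.29 in D2.

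**Figure D4:**
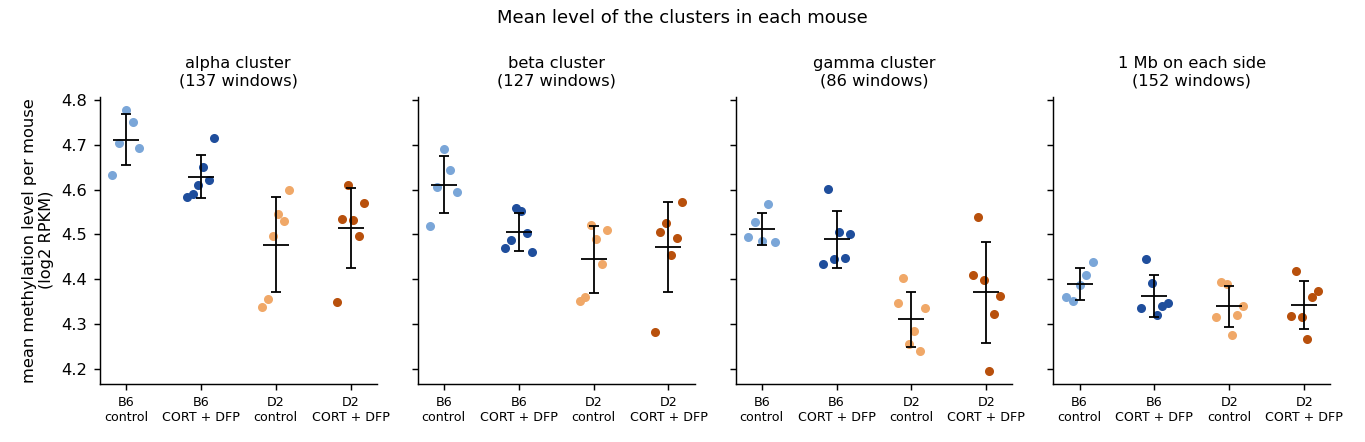
Mean level (log2 RPKM, vertical axis) of the alpha, beta and gamma regions and of the regions in 1 Mb on each side in each mouse, by strain and treatment; points are mice and bars the mean ± SD. The D2 groups lie below the B6 groups on average in the 3 clusters, with overlapping ranges, and the 4 groups lie close together beside the clusters.

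To ask whether CORT + DFP changed methylation here, the treatment term was tested in each strain at the study's unadjusted threshold. In the regression, 0 of 380 protocadherin regions passed a p of 0.0001 in B6 mice (0.0109% of all regions did), 0 in D2 mice (0.0181% of all) and 0 for the treatment-by-strain interaction (0.0114% of all). The count was also 0 for each at an adjusted p below 0.05 in the regression, in limma and in voom. At an unadjusted p of 0.05 or less there were 20 regions in B6 (5.26%, against 5.86% of all regions), 11 in D2 (2.89%, against 5.33%) and 27 for the interaction (7.11%, against 6.82%). The median SE of a treatment effect was 0.16 in B6 and 0.14 in D2 (log2), which sets the size of effect that could be seen, and the effects ran from -0.54 to 0.39 in B6 and from -0.38 to 0.51 in D2.

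The regions with the smallest p are given as values only, since none passed. In Gm36858 (chr18:36987451-36987600), the B6 CORT + DFP mice had 4.76, 5.25 and 5.40 (lowest, median and highest) and the B6 controls 4.74, 5.00 and 5.10, a difference of 0.38 ± 0.12 (SE, unadjusted p = 0.00395, adjusted p = 0.773). In D2 mice the difference there was -0.01 ± 0.097. The region of Pcdhb13 (chr18:37444351-37444500) had 3.71, 4.16 and 4.56 in B6 CORT + DFP mice and 4.34, 4.67 and 4.87 in B6 controls, a difference of -0.54 ± 0.19, against 0.13 ± 0.16 in D2. The ranges of treated and control mice overlapped in both regions. The 2 regions of each cluster with the smallest p in B6 were named, 6 in all. The others were a region each of Pcdha4 (-0.36 ± 0.11), Pcdhb21 (-0.35 ± 0.13), Pcdhga2 (-0.42 ± 0.17) and Pcdhga8 (-0.39 ± 0.17).

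For the interaction, the smallest p in each cluster belonged to Pcdha8 (chr18:36993901-36994050, interaction 0.63 ± 0.18, unadjusted p = 0.00291), Pcdhb21 (chr18:37515301-37515450, 0.54 ± 0.18) and Pcdhgb1 (chr18:37682251-37682400, 0.69 ± 0.24). In Pcdha8, treated and control levels had medians of 4.73 and 5.10 in B6 and 5.02 and 4.70 in D2. In Pcdhgb1 the D2 CORT + DFP mice had 3.36, 3.68 and 3.77 and the D2 controls 2.79, 3.06 and 3.56, a difference of 0.51 ± 0.15 (unadjusted p = 0.00306, adjusted p = 0.882). This region is identical (100%) to part of the Pcdhgb2 exon.

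Set moved with treatment in B6, since the 3 older treated mice were all in set 1 and all controls in set 2. Within set 2 alone (3 treated and 5 control mice), the Pcdhb13 difference was -0.64, that of Gm36858 0.34 and that of Pcdhga2 -0.57. These regions were picked by their p in a fit that includes the same mice, so the set 2 values are no separate test. The median interaction was 0.13 in gamma, 0.06 in beta and 0.03 in alpha, and 0.00 over all regions.

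**Figure D5:**
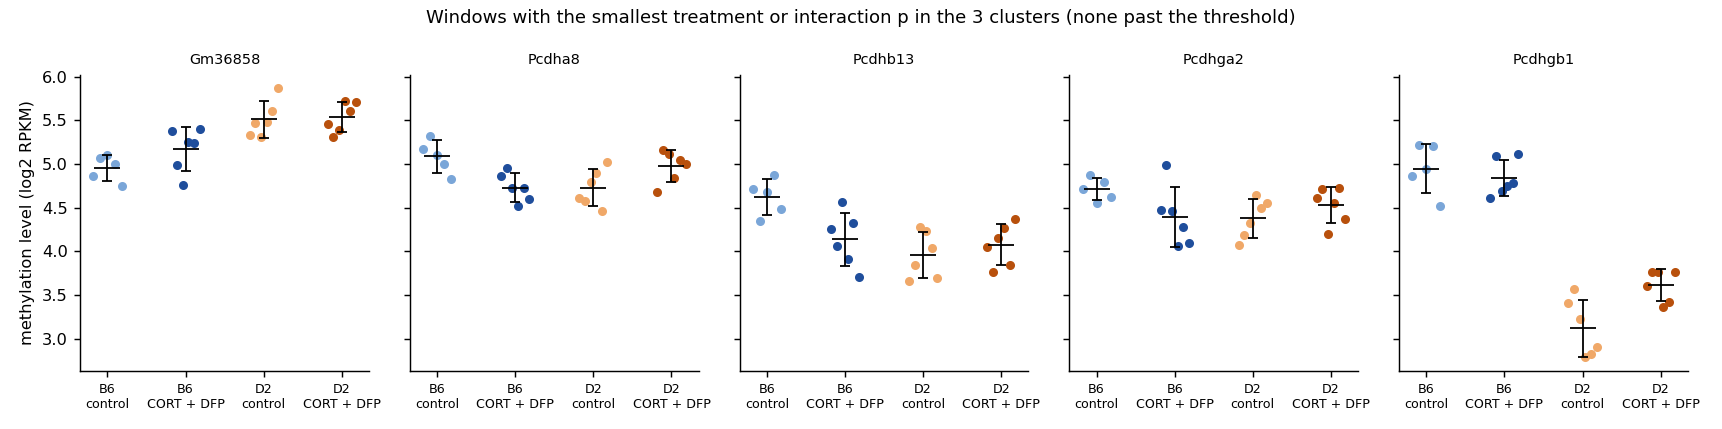
Methylation level (log2 RPKM, vertical axis) in each mouse of 5 regions, in Gm36858, Pcdha8, Pcdhb13, Pcdhga2 and Pcdhgb1. Each had the smallest B6 treatment p or the smallest interaction p of its cluster. Points are mice and bars the mean ± SD of a group. Treated and control mice of a strain overlap in each region, and no region passed the threshold.

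Genes that act with the clustered protocadherins were taken from 3 lists. Regulators, among them the loop-forming proteins CTCF and cohesin and the enzymes that set or remove DNA methylation, had 132 regions over 17 genes, of which 5 were lower and 9 higher in D2 (10.6% called, against 33.6% of all regions). Ctcf, Smc1a, Smc3, Stag2, Nipbl and Setdb1 had no region. In Wapl, which releases cohesin from DNA, 7 of 9 regions were higher, by up to 0.58, and in Dnmt1, the maintenance methyltransferase, 1 of 53. Partners in signalling (Ret, the focal adhesion kinases and the actin-regulating WAVE complex) had 5 lower and 9 higher of 48 regions (29.2% called, against the same 33.6%), with 8 of the 9 in Ptk2. The non-clustered protocadherins had 6 lower and 32 higher of 154 regions (24.7% called, and 20.8% higher against 15.7% of all regions), 17 of the higher ones in Pcdh9 (17 of 28, up to 1.86) and 15 in Pcdh15. In Ret, a receptor kinase, 1 of 16 regions passed the unadjusted treatment threshold and 1 the unadjusted interaction threshold. The other listed genes had 0 regions past either. Over the whole genome, 0 of 210191 regions had an adjusted p below 0.05 in the regression for treatment in B6, in D2 or for the interaction.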

How the data were processed

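The authors deposited log2 RPKM values for 23 mice. Per their methods, the authors aligned reads to GRCm38 with STAR 2.5.0a and counted them in 150 bp windows with MEDIPS. The authors kept windows with CpGs, a mean count above 1 and more than 1 CPM in at least 2 libraries. The authors scaled libraries and took logarithms, with a prior count, in edgeR 3.34.1. Whole reads could be recovered for 100% of values (within 0.05 reads) and were used only for depth and for voom.

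Each window was fitted by least squares (numpy 2.4.6, scipy 1.17.1) with treatment, strain, interaction, sex and age (17 residual degrees of freedom), with Benjamini-Hochberg adjustment over all 210191 windows. Scripts were tested on simulated data. Alternatives included limma 3.58.1 (R 4.3.3). Exon positions came from GENCODE M21, with the gene that it names Pcdha11 at the tenth alpha exon taken as Pcdha10 after RefSeq, and identities from blastn 2.17.0 over at least 140 aligned bases. Named windows were, per cluster, the 3 with the smallest strain p, the 2 with the smallest treatment p in B6 and interaction p, and the highest and lowest level; isoforms were named for most windows or called windows. Other runs were named after their values were seen. Members and lists were chosen with earlier results of these data known. Labels do not say whether sets were prepared apart. No 2 mice of a group were alike within sampling noise (lowest chi-square per window 1.18 over 55 pairs). The p-values measure the spread between mice, which includes the counting noise of the reads.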

Additional observations from a re-analysis of the deposited data

Results flagged for a closer look

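A gap test (Dixon, 95%) on the cluster means and the 24 named regions, 112 groups in all, set apart 1 mouse in 5 groups, where chance gives about 1 in 20 groups. In the Pcdha1 region chr18:36930301-36930450, D2 control replicate 5 stood at 3.31 and the others at 3.58 to 3.73 (gap over range 0.651). In the Pcdha2 region chr18:36939601-36939750, D2 CORT + DFP replicate 5 stood at 2.08 and the others at 3.06 to 3.59 (0.652). In the alpha region chr18:36979801-36979950, B6 control replicate 2 stood at 2.89 and the others at 3.65 to 3.94 (0.722). In Gm36858, chr18:36987301-36987450, B6 control replicate 1 stood at 4.83 and the others at 5.20 to 5.30 (0.785). In the Pcdhb22 region chr18:37521901-37522050, D2 CORT + DFP replicate 1 stood at 3.46 and the others at 2.49 to 2.82 (0.655). The strain calls of the Pcdha1 and Pcdha2 regions held when any 1 mouse was left out. No cluster mean was set apart, and no protocadherin region had an interaction p of 0.0001 or less or an adjusted interaction p below 0.05 in the regression.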

How the results depend on the processing

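The 149 strain calls (104 lower and 45 higher in D2) numbered 63 (44 and 19) with set in place of age, 80 (54 and 26) for the strain contrast in control mice, 50 (34 and 16) in females, 88 (54 lower) in males, 92 (58 lower) at an adjusted p below 0.01, and 14 (7 and 7) in the 8 mice of set 1, the last chosen after seeing the data. Of these, 55 of the 63, 75 of the 80, 50 of the 50, 81 of the 88 and 13 of the 14 were among the 149. The share called was 20.1% of all regions with set, 25.4% in controls, 20.2% in females and 25.6% in males, against 16.6%, 21.1%, 13.2% and 23.2% of the protocadherin regions. The subsets hold fewer mice; the cause of the drop with set was not tested. Leaving out each mouse gave 135 to 151 calls (93 to 106 lower, 41 to 47 higher). The 9 named regions, picked by their strain p in these same mice, stayed called under every alternative except set 1 alone, where 4 did. Of the 6 named B6 treatment regions, 6 had an unadjusted p of at most 0.05 in the regression, 3 without age, and 2 to 6 with each mouse left out, with 2 without B6 CORT + DFP replicate 6. Counts of treatment and interaction calls were 0 under each alternative run. Cluster means moved by less than 1 SD between mice under each alternative. No paired analysis was possible because replicate numbers were given in accession order and pair no mice. Region medians of 16 to 131 reads limit small differences.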
